A study of Saccharomyces cerevisiae with 36 samples.

Results

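The genes described here encode nuclear-encoded subunits of the respiratory chain and of the mitochondrial ATP synthase of the budding yeast Saccharomyces cerevisiae. They were chosen by systematic name and not by any measured value: 36 genes of the 6717 in the expression table. They comprise 3 NADH dehydrogenases, 4 subunits of complex II, 9 of complex III, 7 of complex IV and 13 of ATP synthase. The set does not hold every subunit: COX5A and COX5B, of complex IV, are described apart, and counts by complex cover the listed genes. Their transcripts were measured by RNA sequencing in 6 wild isolates, each grown in 3 media with 2 biological replicates, which gave 36 libraries and 12 for each medium. All 6 are labelled wild. By their labels, NCYC361 and K11 are sensitive to synthetic hydrolysate, NCYC3290 is of medium resistance, and the resistant ones are UWO.S05.22-7, YPS128 and Y7568. The media were YPD, a rich glucose medium, SynH, an artificial version of the toxin-bearing sugar liquor obtained from plant biomass, and SynH -HTs, in which the hydrolysate toxins were left out. Cultures had grown for at least 3 generations when they were harvested in log phase, at an OD600 of about 0.5. The labels name no introduced allele, and they give each isolate as a single strain, so a difference between isolates cannot be attached to one locus.

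The respiratory chain passes electrons from NADH and succinate to oxygen, and ATP synthase uses the resulting proton gradient to make ATP. Budding yeast has no proton-pumping complex I. Its NADH is oxidised by single-subunit enzymes, Ndi1 on the inner side of the inner mitochondrial membrane and Nde1 and Nde2 on the outer side. Complex II, succinate dehydrogenase, also works in the citric acid cycle. Complex III, the cytochrome bc1 complex, hands electrons to cytochrome c, and complex IV, cytochrome c oxidase, hands them to oxygen. Cells fermenting glucose keep many of these genes low, and the Hap2/3/4/5 complex, which binds CCAAT sequences, is the known activator of many of them when glucose is scarce.

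The binding sequence of that activator was looked for as CCAATNA and as its core CCAAT, on both strands, in the 500 bases before each start codon of the RefSeq genome R64. Every CCAATNA match is also a CCAAT match. CCAATNA was found before 31 of the 36 genes (86.1%) and before 24.2% of all 6006 genes with such a window. CCAAT was found before 33 of the 36 (91.7%) and before 62.4% of all. All 13 ATP synthase genes and all 4 complex II genes had a CCAATNA match, as did 6 of 9 in complex III, 6 of 7 in complex IV and 2 of 3 NADH dehydrogenases. COX4, QCR2, QCR6, CYT1 and NDE2 had none in this window. A match is a string of letters and not a measured site. The stretches below are those of the gene with the smallest adjusted p for the toxins in each class, together with NDE1, which has 3 matches and whose level did not pass that test. Each is read 5′ to 3′ on the coding strand with the match farthest from the start codon in capitals, and COX9 and NDE1 carry the motif on the opposite strand, where it reads as its reverse complement.

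NDI1 (YML120C), chrXIII:29998-30064, minus strand: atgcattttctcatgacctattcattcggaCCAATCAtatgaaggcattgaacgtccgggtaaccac

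NDE1 (YMR145C), chrXIII:556702-556768, minus strand: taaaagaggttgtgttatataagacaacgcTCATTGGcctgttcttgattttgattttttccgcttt

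SDH2 (YLL041C), chrXII:54049-54115, minus strand: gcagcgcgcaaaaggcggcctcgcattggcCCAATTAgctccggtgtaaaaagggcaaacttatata

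QCR9 (YGR183C), chrVII:859647-859713, minus strand: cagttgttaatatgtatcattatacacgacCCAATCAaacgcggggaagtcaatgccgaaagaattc

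COX9 (YDL067C), chrIV:334509-334575, minus strand: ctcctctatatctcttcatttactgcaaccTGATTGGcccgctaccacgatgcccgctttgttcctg

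ATP17 (YDR377W), chrIV:1228352-1228418, plus strand: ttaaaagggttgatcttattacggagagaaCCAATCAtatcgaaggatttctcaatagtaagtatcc

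In these 6 stretches the first base of the match lies 227 bases before the start codon in NDI1, 263 in NDE1, 154 in SDH2, 207 in QCR9, 149 in COX9 and 229 in ATP17. The natural isolates may carry other bases here, since the letters are those of the reference genome.

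The deposited values are log2 RPKM, that is reads scaled to gene length and to library size, and the levels below are the same values off the log scale. Reads in genes, recovered from the values, ranged from 2205293 to 32838987 per library with a median of 3587396. Replicate 2 of YPS128 in SynH was the deepest, and the second deepest library held 8047447 reads. In SynH -HTs the replicate 2 libraries of all 6 strains stood apart from those of replicate 1: the median of all features was 0.31 to 0.88 lower on the log2 scale. The median of the respiratory genes moved less between the same libraries, from 0.32 lower to 0.09 higher. Relative to all features, these genes were therefore 0.30 to 0.61 higher in replicate 2 in all 6 strains. The libraries of NCYC361 in YPD also stood apart, with 43.8% of all features above every library of the other strains in that medium. The labels call the replicates biological and the series text says they were collected on different days. The values are shares of each library, so a lower amount of a transcript per cell and a higher amount of all others cannot be told apart.

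Levels per gene length spanned a wide range within the machinery. ATP2 and ATP1, the beta and alpha subunits of the catalytic head of ATP synthase, had the highest mean levels over the 36 libraries, at 792 and 541 RPKM. NDE1 stood at 255 RPKM, while NDI1 stood at 34.3 RPKM, the lowest of the 35 genes that could be tested. The next lowest were 3 of the complex II genes, with SDH2 at 62.7, SDH4 at 63.9 and SDH1 at 71.7 RPKM. Subunits of complexes III and IV lay between 81.2 RPKM for QCR6 and 346 RPKM for QCR9. NDE2 (YDL085W) had very few reads, with 0 to 16 reads per library, 0 reads in 6 libraries and a mean of 0.551 RPKM, and it fell below the minimum mean of 1 RPKM for testing. The largest NDE2 count, 16 reads, was in NCYC361 in YPD, and no change is drawn from such counts.

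Most of the listed respiratory genes were higher with the toxins. In SynH against SynH -HTs, averaged over the 6 strains, 31 of the 35 tested genes rose and 0 fell at an adjusted p below 0.05 in limma. Over all 5927 features tested, 29.6% passed: 19.1% rose and 10.6% fell. The median log2 change of the 35 genes was 0.55, against 0.09 for all features. With libraries scaled to equal medians the all-feature median was -0.04, 23 of the 35 genes and 16.4% of all features rose, and 0 genes and 20.1% of all features fell. The 4 that did not pass were NDE1, CYT1, QCR6 and COX12. No change averaged over the 6 strains was as large as 3-fold, and the largest averages were in NDI1 and SDH2. The p-values of this fit take libraries as independent across strains. Replicate differences in SynH -HTs, however, correlated between every pair of strains, at 0.43 to 0.72. With means over strains by medium and replicate number, 4 of the 35 genes and 2.97% of all features rose.

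Of the NADH dehydrogenases, the gene of the internal enzyme rose and that of the main external enzyme did not pass the test. NDI1 had a lowest, median and highest level of 6.84, 16.5 and 61.2 RPKM in the 12 libraries of SynH -HTs and of 12.1, 47.4 and 117 RPKM in those of SynH. The ranges overlap between media because strains differ, but within each of the 6 strains both SynH libraries were above both SynH -HTs libraries. The log2 change was 1.30 ± 0.12 (SE), a 2.46-fold rise (adjusted p = 1.35e-08). NDE1 had a lowest, median and highest level of 126, 175 and 379 RPKM in SynH -HTs and of 76.9, 208 and 543 RPKM in SynH. Its log2 change was 0.05 ± 0.09 (adjusted p = 0.74), higher in 3 strains and lower in 3. The difference between both genes was not tested.

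All 4 genes of complex II rose, and it was the class with the highest median change, 0.78 on the log2 scale. SDH2, the iron-sulfur subunit, had a lowest, median and highest level of 16.3, 39.4 and 143 RPKM in SynH -HTs and of 29.3, 111 and 178 RPKM in SynH. Within each strain its SynH libraries were above its SynH -HTs libraries in 5 strains, and in K11 they overlapped. The log2 change was 1.18 ± 0.09, a 2.27-fold rise (adjusted p = 2.36e-10). SDH1, the flavoprotein that oxidises succinate, went from a median of 50.7 to one of 112 RPKM, with a log2 change of 0.85 ± 0.09 (adjusted p = 1.14e-07). The membrane anchors SDH3 and SDH4 rose by 0.69 ± 0.14 and 0.71 ± 0.15 on the log2 scale, with adjusted p of 0.000429 and 0.000764. The adjusted p of these anchors was 0.0904 and 0.084 when libraries were scaled to equal medians.

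In complex III 7 of 9 genes rose. QCR9, a small subunit, had a lowest, median and highest level of 132, 224 and 677 RPKM in SynH -HTs and of 153, 408 and 998 RPKM in SynH. Its log2 change was 0.75 ± 0.08 (adjusted p = 5.37e-08), and both SynH libraries were above both SynH -HTs libraries in each of the 6 strains. QCR10 changed by 0.51 ± 0.07 (adjusted p = 5.41e-06), with medians of 139 and 224 RPKM. The core proteins COR1 and QCR2 and the small subunits QCR7 and QCR8 changed by 0.49 to 0.59. The catalytic subunits moved least. RIP1, the Rieske iron-sulfur protein, changed by 0.33 ± 0.09 (adjusted p = 0.00871), and the p was 0.47 after scaling to equal medians. CYT1, cytochrome c1, changed by 0.18 ± 0.11 (adjusted p = 0.251). QCR6, the acidic hinge subunit, changed by 0.48 ± 0.22 (adjusted p = 0.114); its SynH -HTs replicate 1 libraries exceeded those of replicate 2 in every strain, for instance 204 against 71.0 RPKM in K11 and 44.8 against 13.9 RPKM in UWO.S05.22-7.

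In complex IV 6 of 7 genes rose, by smaller amounts, with a class median of 0.37. COX9 had a lowest, median and highest level of 136, 202 and 500 RPKM in SynH -HTs and of 180.2, 306 and 590 RPKM in SynH. Its log2 change was 0.57 ± 0.10 (adjusted p = 6.92e-05), with both SynH libraries above both SynH -HTs libraries in all 6 strains. COX4, the zinc-binding subunit, changed by 0.36 ± 0.06 (adjusted p = 0.000129), and it was higher in 4 strains and lower in K11 and UWO.S05.22-7. After scaling to equal medians the adjusted p was 0.0675 for COX9 and 0.254 for COX4. COX12 changed by 0.34 ± 0.14 (adjusted p = 0.0713).

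All 13 listed genes of ATP synthase rose, with log2 changes from 0.36 for ATP1 to 0.75 for ATP3. ATP17, subunit f of the membrane part, had a lowest, median and highest level of 126, 163 and 534 RPKM in SynH -HTs and of 188, 296 and 719 RPKM in SynH. Both SynH libraries were above both SynH -HTs libraries in each strain, and the log2 change was 0.74 ± 0.06 (adjusted p = 2.71e-10). ATP5, the stalk subunit that ties the head to the membrane part, had medians of 159 and 248 RPKM and a log2 change of 0.56 ± 0.06 (adjusted p = 3.83e-08). ATP3, the rotor subunit gamma, changed by 0.75 ± 0.12 (adjusted p = 2.45e-05). The catalytic head subunits ATP1 and ATP2, the most abundant of the set, changed by 0.36 ± 0.08 and 0.47 ± 0.07.

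**Figure D1:**
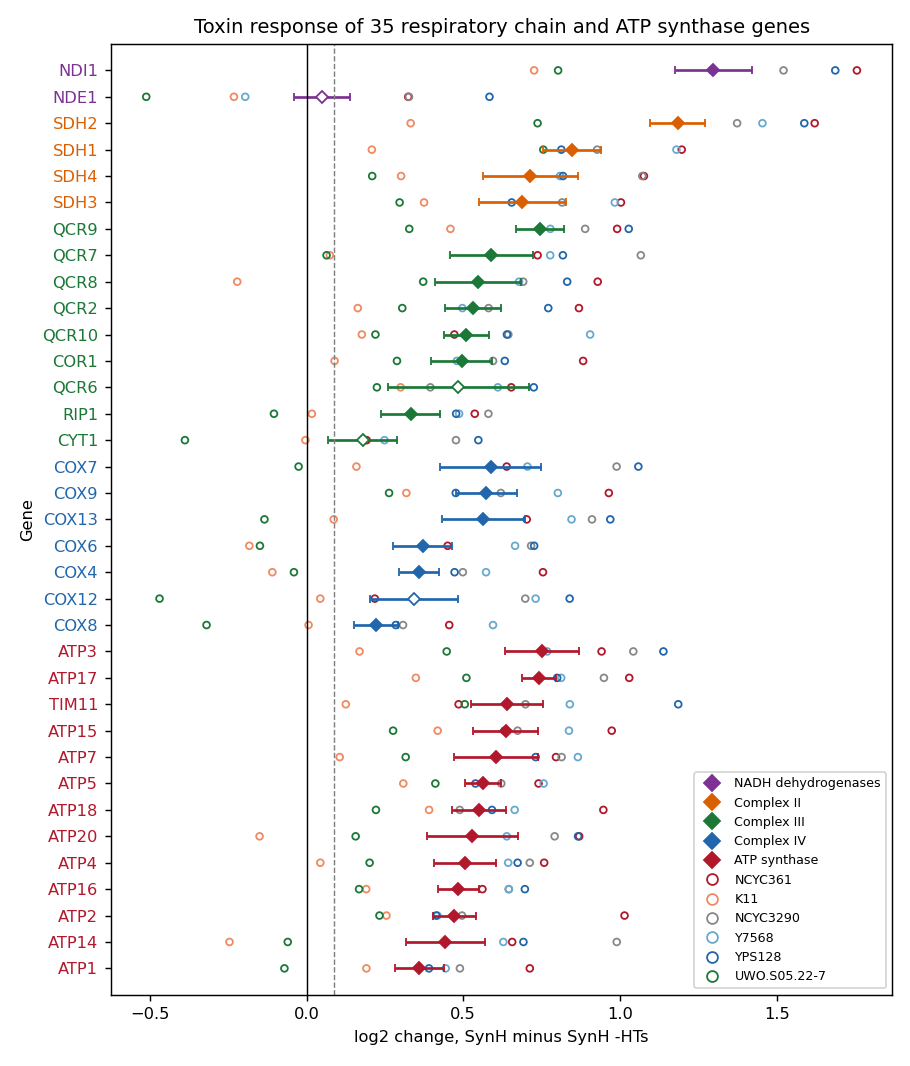
Log2 change from SynH -HTs to SynH for the 35 tested genes, grouped by class. Diamonds are the mean over 6 strains with the standard error of the fit, filled where the adjusted p was below 0.05, open circles are the single strains, and the dashed line is the median of all features at 0.09; filled diamonds lie to the right of 0 in 31 of 35 genes, and the circles of K11 and UWO.S05.22-7 lie mostly to the left of the others.

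The number of genes that rose depended on the SynH replicates: it was 19 without the SynH replicate 2 libraries, where 10.8% of all features rose, and 30 without those of replicate 1, where 18.7% did. The background of all features depended on the SynH -HTs replicates as well. Its median log2 change was 0.39 without those of replicate 1 and -0.20 without those of replicate 2, beside 0.09 with all libraries. When the 6 strains were averaged for each medium and replicate number, a fit chosen after the shared replicate shift in SynH -HTs had been seen, 4 genes rose, NDI1, SDH2, QCR9 and ATP17, beside 176 of all 5927 features (2.97%).

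The toxin response was larger in 4 strains than in K11 and UWO.S05.22-7, a split made after the values were seen. The median log2 change over the 35 genes was 0.76 in NCYC361, 0.70 in NCYC3290, 0.70 in Y7568 and 0.72 in YPS128. The medians of all features in these strains were 0.13, 0.16, 0.03 and 0.12. In K11 the 35 genes had a median of 0.16 and all features one of -0.11, and 30 of the 35 lay above the latter. In UWO.S05.22-7 the medians were 0.22 and 0.18, and 21 of the 35 lay above that of all features. There complex IV had a median of -0.13, with 6 of its 7 genes lower, while complex II had one of 0.52. Both SynH libraries were above both SynH -HTs libraries for 30 genes in NCYC361, 34 in NCYC3290, 33 in Y7568 and all 35 in YPS128, where 24.7, 24.7, 19.8 and 22.4% of all features did the same. The counts were 9 in K11 and 10 in UWO.S05.22-7, beside 17.5 and 15.4% of all features. In the opposite direction, NDE1 was lower without overlap in K11 (24.6% of all features), COX8 in UWO.S05.22-7 (7.14%), and 0 genes in NCYC361 (12.7%), NCYC3290 (10.3%), Y7568 (15.4%) and YPS128 (10.9%). NDI1, QCR9, COX9, ATP5, ATP15 and ATP17 were higher without overlap in both K11 and UWO.S05.22-7. The share of all features that did so in both strains was not counted. K11 is labelled sensitive and UWO.S05.22-7 resistant, and their base medium responses lay at opposite ends of the range, as described below. The SynH -HTs libraries enter both responses, with opposite sign, so these responses are not independent of each other. A link between them was not tested.

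Strain differences in the toxin response passed the F test over the 6 strains for SDH2 alone of the 35 genes (adjusted p = 0.0448), a share near the 2.38% of all features that passed, and 7 of the 35 had an unadjusted p below 0.05. SDH2 stood at 31.4 and 39.3 RPKM in the SynH -HTs libraries of NCYC3290 and at 84.6 and 97.9 RPKM in SynH. In NCYC361 it stood at 33.2 and 29.7 RPKM without toxins and at 92.2 and 101 RPKM with them. In K11 it stood at 104 and 143 RPKM without toxins and at 133 and 178 RPKM with them. The largest strain change was 1.62 on the log2 scale in NCYC361, beside 0.33 in K11. The SynH -HTs level of K11 was the highest. That level is subtracted in the toxin response, so level and change are not independent, and a link between them was not tested. The SDH2 call was lost without the SynH -HTs replicate 2 libraries, and without those of either SynH replicate. Of the other classes, the members with the smallest p by this test did not pass: COX4 had an adjusted p of 0.112, ATP17 of 0.265, NDE1 of 0.288 and QCR10 of 0.666.

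In the base medium, without toxins, genes passed in both directions, and strains moved in opposite directions. A difference between the classes was not tested. In SynH -HTs against YPD, averaged over strains, 7 of the 35 genes rose and 9 fell. Over all features 45.2% passed, 6.78% rose and 38.4% fell, and the median log2 change was -0.31. The rises were in complex II (SDH1, SDH2 and SDH4) and complex III (CYT1, RIP1, QCR2 and QCR10). The falls were in both NADH dehydrogenases, in COX7 and COX8, and in ATP14, ATP15, ATP16, ATP17 and TIM11 of ATP synthase. Scaling to equal medians moved the median of all features to 0.06; with it 20 genes and 24.6% of all features rose, and 0 genes and 16.3% of all features fell. With the strain as the replicate 0 genes rose and 0 fell, beside 1.01 and 6.83% of all features, and with means over strains by medium and replicate number 1 rose and 0 fell, beside 1.1 and 2.56%, so the averages below describe these strains and not a shared response.

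CYT1 had the largest rise. Its lowest, median and highest level was 8.10, 150.4 and 214 RPKM in YPD and 70.8, 218 and 478 RPKM in SynH -HTs. The log2 change was 1.01 ± 0.11 (adjusted p = 1.28e-07). NCYC361 carried much of it, since its libraries stood at 8.10 and 17.2 RPKM in YPD and at 155 and 141 RPKM in SynH -HTs. Without NCYC361 the change was 0.48 (adjusted p = 0.00114). RIP1 changed by 0.60 ± 0.09 (adjusted p = 2.4e-05), and by 0.20 (adjusted p = 0.144) without NCYC361. SDH1 changed by 0.57 ± 0.09 (adjusted p = 2.76e-05) and SDH2 by 0.51 ± 0.09 (adjusted p = 6.6e-05). Both depended on K11: without it the changes were 0.25 (adjusted p = 0.0506) and 0.18 (adjusted p = 0.113). The same held for SDH4, at 0.56 ± 0.15 with K11 (adjusted p = 0.00524) and 0.30 without it (adjusted p = 0.146). Of complex III the lowest value was that of QCR6, at -0.43 ± 0.22 (adjusted p = 0.118), while COX6, the highest of complex IV, had a change of 0.14 ± 0.09 (adjusted p = 0.231).

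NDI1 had the largest fall. Its median was 26.8 RPKM in YPD, with a range from 14.8 to 42.8 RPKM, and 16.5 RPKM in SynH -HTs. The log2 change was -0.65 ± 0.12 (adjusted p = 0.000182), lower in 5 strains and higher in K11. NDE1 fell by 0.32 on the log2 scale (SE 0.09, adjusted p = 0.00628), and with scaling to equal medians its change was 0.05. After scaling to equal medians the NDI1 change was -0.28 (adjusted p = 0.189), and with the strain as the replicate the adjusted p was 0.244. In NCYC361, where the median of all features was -0.89, the NDI1 level in single libraries went from 14.8 and 22.5 RPKM in YPD to 9.49 and 6.84 RPKM in SynH -HTs and to 22.4 and 33.1 RPKM in SynH. Of the smaller falls, ATP17 changed by -0.32 ± 0.06 (adjusted p = 7.76e-05), ATP14 by -0.41 ± 0.13 (adjusted p = 0.0108) and COX7 by -0.43 ± 0.16 (adjusted p = 0.0356). After scaling to equal medians the change was 0.06 for ATP17, -0.04 for ATP14 and -0.05 for COX7.

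The base medium response differed among strains for 34 of the 35 genes by the F test, all but QCR6, where 29.6% of all features passed. K11 and UWO.S05.22-7 were the extremes. In K11 all 35 genes were higher in SynH -HTs than in YPD, with a median log2 change of 1.37, and 34 of them without overlap of the libraries (39.8% of all features), against 0 lower (17.4%). In UWO.S05.22-7 all 35 were lower, with a median of -0.93, and 33 of them without overlap (47.2% of all features), against 0 higher (4.67%). The median of all features was 0.23 in K11 and -0.55 in UWO.S05.22-7, where 7 of the 35 genes lay above it. ATP17, for example, stood at 284 and 307 RPKM in YPD and at 534 and 501 RPKM in SynH -HTs in K11. In UWO.S05.22-7 it stood at 245 and 239 RPKM in YPD and at 152 and 126 RPKM in SynH -HTs. These values show the opposite directions of both strains. NCYC3290, Y7568 and YPS128 had medians of -0.31, -0.26 and -0.46, against -0.26, -0.17 and -0.24 for all features. There 17, 15 and 22 genes were lower without overlap, beside 34.6, 27.9 and 31.7% of all features. The genes higher without overlap in these 3 strains were CYT1, SDH1, SDH2 and SDH4 in NCYC3290 (10.8% of all features), CYT1 in Y7568 (9.45%), and SDH1 and SDH4 in YPS128 (14.6%).

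NCYC361 divided the machinery. Its median log2 change from YPD to SynH -HTs was 1.17 for complex II, 1.25 for complex III and 0.58 for complex IV, while it was -0.75 for ATP synthase, where the median of all features in this strain was -0.89. All 4 genes of complex II, 8 of 9 of complex III and 4 of 7 of complex IV were higher without overlap, where 11.7% of all features were. No ATP synthase gene was, and 11 of its 13 were lower without overlap, where 64.2% of all features were. The level of COX4 shows the contrast with ATP3. COX4 stood at 43.5 and 51.5 RPKM in YPD and at 139 and 122 RPKM in SynH -HTs. ATP3 stood at 165 and 181 RPKM in YPD and at 112 and 60.5 RPKM in SynH -HTs.

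**Figure D2:**
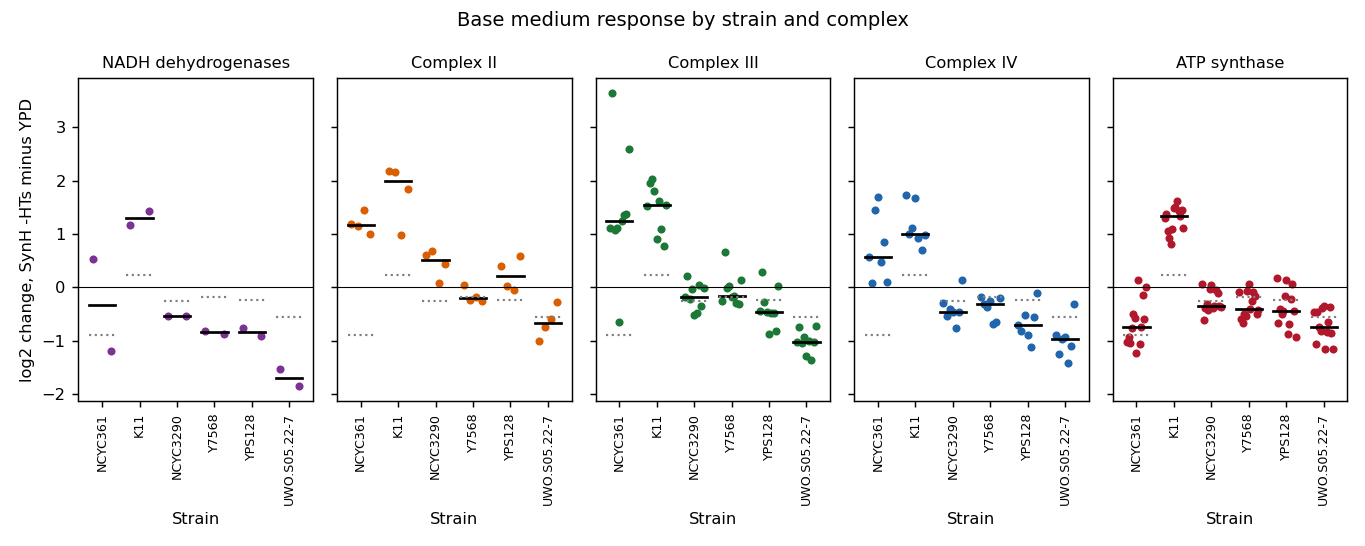
Log2 change from YPD to SynH -HTs by strain in each class. Points are single genes, black bars the class median and dotted bars the median of all features in that strain; K11 lies above 0 and UWO.S05.22-7 below 0 for all 35 genes, and in NCYC361 complexes II and III lie mostly above 1 while ATP synthase has a median of -0.75.

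The strains differed in level as well as in response. The mean level over the 3 media differed among strains for all 35 genes by the F test, while 68.8% of all features passed. In YPD, NCYC361 was below every library of the other 5 strains for 22 genes (11.4% of all features). These were all 7 genes of complex IV, 8 of 9 of complex III and 3 of 4 of complex II, but 3 of 13 of ATP synthase. YPS128 was above every library of the others for 24 genes (2.21% of all features), 11 of them of ATP synthase. In SynH -HTs, K11 was above every other library for 29 genes (28.1% of all features). In SynH, UWO.S05.22-7 was below every other library for 33 genes (10.4% of all features), all 4 of complex II, all 9 of complex III, all 7 of complex IV, 12 of ATP synthase and NDI1. K11 was above all others there for 16 genes (22.4% of all features).

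**Figure D3:**
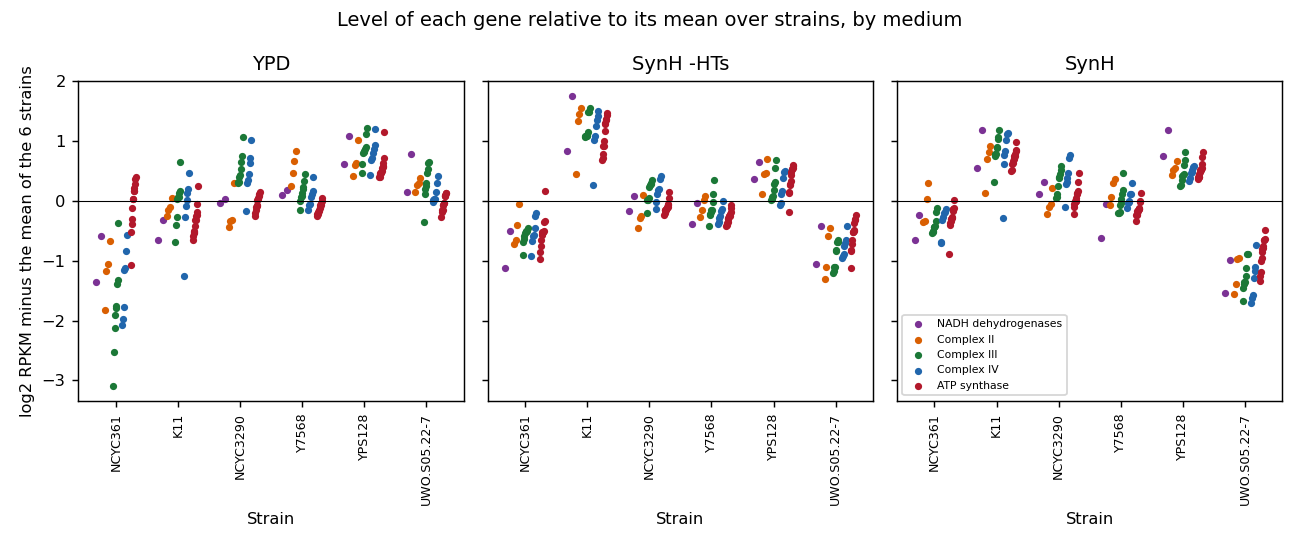
Log2 RPKM of each of the 35 tested genes minus its mean over the 6 strains, in each medium. Points are genes and colours are classes; NCYC361 lies lowest in YPD for complexes II to IV, K11 highest in SynH -HTs, and UWO.S05.22-7 lowest in SynH, where 33 genes are below every other library.

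COX6 showed the changing order. In YPD its libraries stood at 37.5 and 49.9 RPKM in NCYC361 and at 58.8 and 64.6 RPKM in K11, below the 178 to 379 RPKM of the other strains. In SynH they stood at 174 and 212 RPKM in NCYC361 and at 147 and 204 RPKM in K11, ranges that overlapped. UWO.S05.22-7 was then the lowest, at 73.8 and 118 RPKM. The order of strains in YPD was therefore not that in SynH, and neighbouring strains often overlapped.

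**Figure D4:**
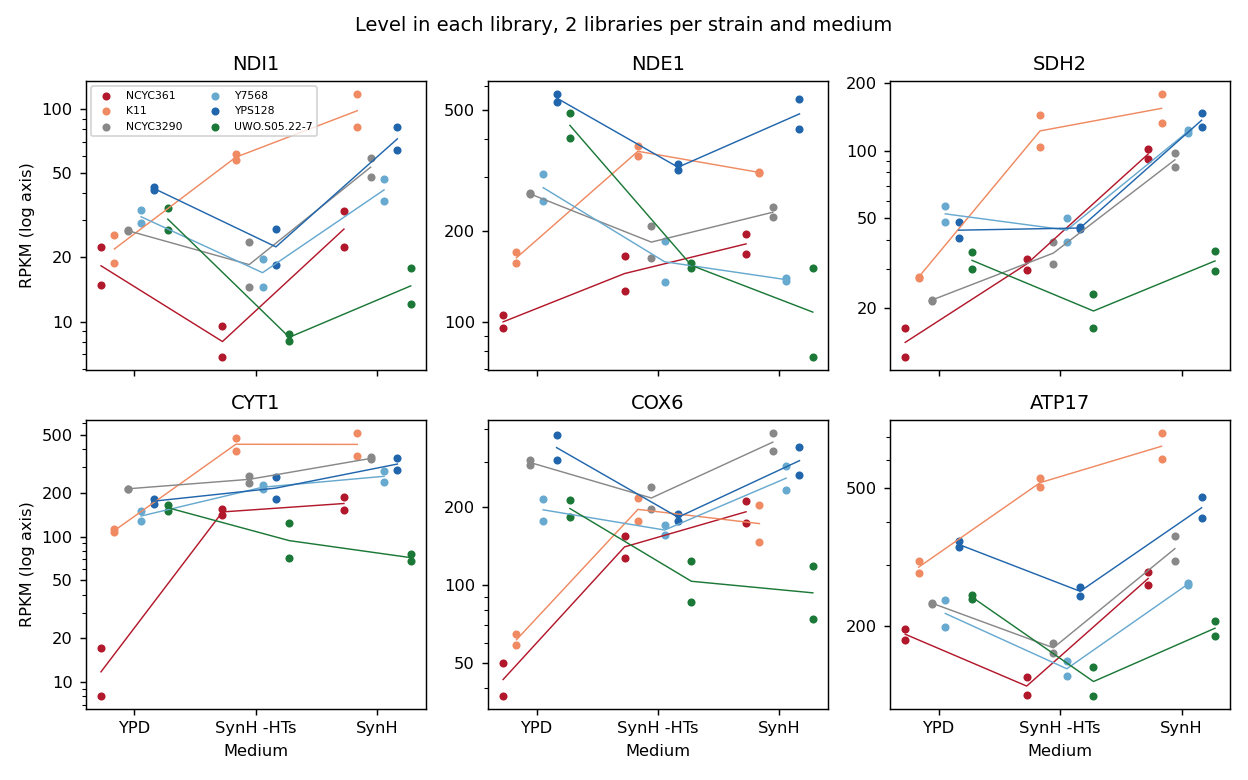
Level of NDI1, NDE1, SDH2, CYT1, COX6 and ATP17 in RPKM on a log axis, by medium and strain. Points are single libraries and lines join the geometric means of 2; CYT1 and COX6 of NCYC361 are lowest in YPD, and the levels of NDI1 and SDH2 rise from SynH -HTs to SynH in each strain's mean.

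Both steps together, SynH against YPD, raised 28 of the 35 genes and lowered 1, NDE1. Over all features 48.7% passed, 14.4% rose and 34.2% fell, with a median of -0.23. Complex II rose most: SDH2 by 1.69 ± 0.09 (adjusted p = 1.2e-13), SDH1 by 1.42 ± 0.09 (adjusted p = 7.84e-12), SDH4 by 1.27 ± 0.15 and SDH3 by 0.97 ± 0.14. SDH2 went from a median of 28.7 RPKM in YPD to 111 RPKM in SynH. CYT1 changed by 1.18 ± 0.11 (adjusted p = 5.06e-09), NDI1 by 0.65 ± 0.12 (adjusted p = 0.000134) and NDE1 by -0.27 ± 0.09 (adjusted p = 0.015). Class medians were 0.72 for complex III and 0.39 for both complex IV and ATP synthase. Without overlap, 26 genes were higher in NCYC361 (15.2% of all features), 35 in K11 (44.5%), 29 in NCYC3290 (22.4%), 27 in Y7568 (21.9%) and 20 in YPS128 (22.4%). The counts of genes lower were 5 in NCYC361 (67.8%), 0 in K11 (29.4%), 2 in NCYC3290 (31.9%), 1 in Y7568 (44.0%) and 1 in YPS128 (31.3%). UWO.S05.22-7 went the other way: 0 genes were higher and 29 were lower without overlap (11.9 and 50.6% of all features). This comparison shares its SynH libraries with the toxin response and its YPD libraries with the base medium response. With libraries scaled to equal medians 33 genes rose and 0 fell, beside 26% and 24% of all features. With the strain as the replicate 6 genes rose, beside 5.43% of all features, and with means over strains by medium and replicate number 9 did, beside 4.18%.

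For the resistance classes each strain counted once, which set 3 resistant strains against 2 sensitive ones and left out NCYC3290. No gene of the 35, and none of the 5927 features (0.0%), passed limma's test for the toxin response, where 482 features and 1 of the 35 genes, TIM11, had an unadjusted p below 0.05. None passed for the level in SynH (0.0% of all features), where 811 features and 0 of the 35 had one. The median difference in toxin response, resistant minus sensitive, was 0.04 on the log2 scale, and single genes ran from -0.28 to 0.54. In both classes one strain had a small response, K11 among the sensitive and UWO.S05.22-7 among the resistant strains.

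Other genes of the pathway were taken from lists of assembly factors, isoforms, inhibitors and regulators. COX5A and COX5B encode alternative forms of one complex IV subunit, used with more and with less oxygen, and CYC1 and CYC7 encode the 2 forms of cytochrome c. With the toxins 3 of these 4 rose and 1 fell. COX5A changed by 0.46 ± 0.07 (adjusted p = 3.53e-05), COX5B by 0.98 ± 0.23 (adjusted p = 0.00156) and CYC7 by 0.87 ± 0.28 (adjusted p = 0.0189). In SynH -HTs, COX5B had only 5 to 21 reads per library and CYC7 2 to 76. CYC1 changed by -0.33 ± 0.12 (adjusted p = 0.036). The CYC1 call was lost without K11, NCYC3290 or UWO.S05.22-7 (adjusted p = 0.134, 0.0595 and 0.221), and that of CYC7 without NCYC3290 or YPS128 (0.152 and 0.169). That of COX5A was lost after scaling to equal medians (0.13), and that of COX5B without the SynH replicate 2 libraries (0.148). In the base medium CYC1 rose 2.84-fold (adjusted p = 4.89e-10) and CYC7 by 0.92 ± 0.28 on the log2 scale (adjusted p = 0.0102), while COX5A and COX5B did not pass. Without NCYC361 the CYC1 change was 0.37 on the log2 scale (adjusted p = 0.0172), and without K11 that of CYC7 was 0.66 (adjusted p = 0.0873).

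The CYC1 change in the base medium came with the same strain as that of CYT1. CYC1 stood at 5.08 and 2.73 RPKM in the YPD libraries of NCYC361 and between 318 and 840 RPKM in those of the other strains. In SynH -HTs it stood at 699 and 430 RPKM in NCYC361. COX5B was the reverse: in YPD it stood at 22.0 and 30.6 RPKM in NCYC361 and between 2.32 and 6.14 RPKM elsewhere. In SynH -HTs it stood at 3.86 and 2.72 RPKM in NCYC361, within the range of the other strains. The 2 NCYC361 libraries in YPD thus held high COX5B and low CYC1, CYT1, COX4 and COX5A (58.0 and 77.1 RPKM), set against all other YPD libraries. Of all features, 43.8% were above and 11.4% below every YPD library of the other strains in these 2 libraries.

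Of the regulators, HAP4, the activating and glucose-regulated subunit of the Hap complex, rose with the toxins by 0.69 ± 0.15 (adjusted p = 0.00111), and HAP1, HAP2, HAP3 and HAP5 did not pass. Without the SynH replicate 2 libraries the HAP4 change was 0.44 (adjusted p = 0.127). In the base medium HAP4 changed by -0.57 ± 0.15 (adjusted p = 0.00449), and HAP1, HAP2 and HAP5 also fell, so that 4 of 5 fell where 38.4% of all features did. After scaling to equal medians HAP1 (-0.66) and HAP4 (-0.20) still passed, and HAP2 and HAP5 did not (adjusted p = 0.0906 and 0.21). Without the SynH -HTs replicate 2 libraries HAP1 alone of the 4 passed. HAP1, a haem-responsive activator, had the smallest adjusted p there, with a change of -1.03 ± 0.15 (adjusted p = 9.93e-06). The median HAP4 level was 43.4 RPKM in YPD, 25.6 RPKM in SynH -HTs and 48.3 RPKM in SynH.

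Of 38 assembly factors, which build the complexes but are not part of them, 5 rose with the toxins and 0 fell, with a median of 0.11. That is a smaller share than the 19.1% of all features that rose, and the median was near the 0.09 of all features. They were SDH6 and SDH8, which serve complex II, and COX20, SCO1 and COA1, which serve complex IV. SDH6 changed by 1.65 ± 0.23 (adjusted p = 3.88e-06), from a median of 4.98 to one of 20.0 RPKM, and COX20 by 0.76 ± 0.13 (adjusted p = 7.36e-05). SDH6 had 2 to 31 reads per library in SynH -HTs, so the size of its change rests on few reads. In the base medium 1 rose, COX15, which makes haem A, by 0.66 ± 0.09 (adjusted p = 3.11e-06), and 11 fell, again a smaller share than the 38.4% of all features. SDH8 had the smallest adjusted p, with a change of -0.92 ± 0.12 (adjusted p = 2.01e-06), and without NCYC361 it was -0.38 (adjusted p = 0.0341).

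Both inhibitors of the reverse activity of ATP synthase rose with the toxins, INH1 by 0.80 ± 0.09 (adjusted p = 3.76e-07) and STF1 by 1.49 ± 0.26 (adjusted p = 9.25e-05), and neither passed in the base medium. STF1 had 2 to 17 reads per library in SynH -HTs, so the size of its change rests on few reads. All 3 other dehydrogenases that feed the chain rose with the toxins. CYB2, the L-lactate dehydrogenase, rose by 2.04 ± 0.20 (adjusted p = 2.21e-08), DLD1, the D-lactate dehydrogenase, by 0.89 ± 0.14 (adjusted p = 2.02e-05) and GUT2, the glycerol-3-phosphate dehydrogenase, by 0.60 ± 0.17 (adjusted p = 0.00903). In the base medium GUT2 changed by -1.69 ± 0.17 (adjusted p = 3.94e-08) and DLD1 by -0.46 ± 0.14 (adjusted p = 0.00983). Without NCYC361 the change was -1.005 for GUT2 (adjusted p = 0.000157) and 0.01 for DLD1 (adjusted p = 0.951). The toxin response of CYB2 differed among strains (adjusted p = 0.00777): it was -0.15 in K11, 0.77 in UWO.S05.22-7 and 2.41 to 3.75 in the other 4. Of these, NCYC361 had 1 and 4 CYB2 reads in SynH -HTs and Y7568 had 6 and 9. NCYC3290 and YPS128 had 25 to 182. The 1 read added before log2 therefore weighs on the size of the change at the lowest counts. Of the 2 supercomplex factors RCF2 rose with the toxins, by 0.39 ± 0.11 (adjusted p = 0.00977), and RCF1 did not pass. Of the 3 paralogs of complex II subunits 1, SHH4, was high enough to be tested, and its toxin response was 0.36 ± 0.18 (adjusted p = 0.151). When the replicates of SynH or SynH -HTs were left out in turn, the toxin calls of SCO1, SDH8, COA1, GUT2, RCF2, CYC1, CYC7 and COX5B were each lost at least once, and those of INH1, STF1, SDH6, COX20, CYB2, DLD1 and COX5A were kept in all 4 fits.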

How the data were processed

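The authors deposited 1 table of log2 RPKM values for 6717 features in 36 libraries, plus 6 rows that name no gene and were left out of all tests. Tools listed in the submitters' processing notes are HTSeq 0.6.0, Bowtie2 and Trimmomatic 0.30, and per the labels' protocols RNA was depleted of ribosomal RNA and libraries were made with a stranded kit. Build, annotation and use of strand in counting: not given in the sources used here; none of the 36 genes overlaps another gene in RefSeq R64, whose names, coordinates and sequences were used. From the values, the authors added 1 read before taking log2; reads recovered with R64 coding lengths were whole within 0.05 reads for 99.83% of values, and they served to show depth.

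The deposited log2 values were fitted in limma 3.58.1 (R 4.3.3), with 1 mean for each of 18 groups of strain and medium, an intensity-dependent prior variance over the 5927 features whose mean reached 1 RPKM. Adjustment was by Benjamini-Hochberg over all features for each comparison, with a threshold of 0.05. Errors are standard errors of the fit, which reflect libraries within strains. Without overlap means that both libraries of a strain and medium lie beyond both, or all, of those compared. The fit was tested on simulated data with noise drawn independently for each library. That test therefore does not cover shifts that libraries share across strains. Genes given in full are, in each class, the 2 with the smallest adjusted p for the toxins, the largest rise and fall in the base medium, the smallest adjusted p for strain differences in the toxin response, and any below the minimum level; of other lists, up to 3 genes with the smallest adjusted p and HAP4, COX5A, COX5B, CYC1 and CYC7. RIP1, SDH3, SDH4, ATP3 and some others were added after their values were seen. The genes and lists were chosen with earlier results of these data known. The NCYC361 libraries titled SynHv were taken as SynH from their medium label. Alternatives changed the scaling, the minimum level, the added RPKM, the libraries and strains used, the replicate unit and the replicate block.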

Additional observations from a re-analysis of the deposited data

Results flagged for a closer look

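The toxin response of SDH2 differed among the 6 strains (limma F test, adjusted p = 0.0448), from 0.33 in K11 to 1.62 in NCYC361 on the log2 scale and above 0 in 6 of 6 strains. That is 1 of 35 genes, where 2.38% of all features passed, and the call was lost without SynH -HTs replicate 2, without either SynH replicate and with no minimum level.

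The base medium response differed among strains in 34 of 35 genes. For the genes named above the adjusted p of limma's F test was 4.33e-05 for NDI1 and 3.21e-06 for NDE1, whose changes ran from -1.84 and -1.53 in UWO.S05.22-7 to 1.43 and 1.16 in K11. It was 1.16e-06 for SDH1 and 8.07e-07 for SDH2, with changes from -0.999 and -0.75 in UWO.S05.22-7 to 2.18 and 2.16 in K11. It was 6.43e-08 for CYT1 and 2.57e-07 for RIP1, with changes from -0.75 and -0.72 in UWO.S05.22-7 to 3.64 and 2.60 in NCYC361. It was 7.46e-06 for ATP17, 0.0102 for COX7 and 0.000964 for ATP14, each lowest in UWO.S05.22-7 and highest in K11. These values share their YPD and SynH -HTs libraries across genes, so they are not independent of one another.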

How the results depend on the processing

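Of 540 values of single genes under an alternative setting, 453 kept their direction and side of the threshold, 77 lost the call, 1 gained it and 9 changed sign. Those that changed sign were all small: the toxin response of NDE1 (-0.0295 with quantile normalization, -0.0820 with scaling to equal medians, from -0.0039 to 0.1028 when replicates were left out, -0.0055 without NCYC361, -0.0060 without NCYC3290, -0.0573 without YPS128), the base medium response of NDE1 and ATP17 with scaling to equal medians (0.0514 and 0.0574), and the complete response of NDE1 without UWO.S05.22-7 (0.0809). The count of genes that rose with the toxins, 31, ran from 19 to 32 when the replicates of 1 medium were left out. The count of genes was 23 with scaling to equal medians (16.4% of all features) and 29 with quantile normalization (17.3%). It was 30 with the strain as the unit (21.9%) and 4 with means over strains by medium and replicate number (2.97%). In the base medium, 7 rose and 9 fell (6.78 and 38.4% of all features). The counts were 15 and 2 with quantile normalization (20.2 and 18.2%) and 20 and 0 with scaling to equal medians (24.6 and 16.3%). They were 0 and 0 with the strain as the unit (1.01 and 6.83%) and 1 and 0 with means over strains (1.1 and 2.56%). Without K11 they were 2 and 18 (6.03 and 46.4%), and without UWO.S05.22-7 they were 13 and 3 (7.82 and 31.7%). The number that fell was 4 without Y7568 and 5 without YPS128, and leaving out replicates gave 4 to 10 that rose and 3 to 16 that fell. For the complete hydrolysate, 28 rose and 1 fell (14.4 and 34.2% of all features). When replicates were left out, the all-feature median ran from -0.35 to -0.11. With the strain as the unit 6 rose (5.43%), and with means over strains 9 did (4.18%). The single fall became 0 with quantile normalization (28.6% of all features fell), scaling to equal medians (24%), the strain as the unit (19.7%) and means over strains (3.81%). It also became 0 without Y7568 (30.7%) or UWO.S05.22-7 (31.4%), and 2 without NCYC361 (27.4%). The single strain difference in the toxin response, SDH2, became 0 with no minimum level, where 131 of 6717 features passed. The 34 strain differences in the base medium response ran from 22 to 35 when replicates were left out and were 24 with scaling to equal medians. The cause of these movements was not tested, except that leaving out libraries uses fewer samples and leaves 1 library for each strain in that medium, assumed to vary like the rest. The replicate numbers are not shown to pair the samples: the correlation of replicate differences between media within a strain ran from -0.45 to 0.28. Within SynH -HTs the same differences correlated between every pair of strains, at 0.43 to 0.72, and within SynH at -0.08 to 0.63, so libraries of these media that share a number are not independent across strains; the fit with means over strains by medium and replicate number treats them as 1 value. With the replicate block, 31 genes rose with the toxins (19.1% of all features), and 7 rose and 9 fell in the base medium (6.92 and 39.1%). With it 28 rose and 1 fell with the complete hydrolysate (14.6 and 34.9%). In the toxin response, the base medium response and the mean level, 1, 34 and 35 genes differed among strains, beside 140, 1777 and 4147 of 5927 features. These counts of genes were the same without the block. A count test on the recovered reads was not run. Of the 36 genes, NDE2 alone fell below the minimum level for testing.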
